A study of Homo sapiens with 12 samples.

Results

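DLK1 and 9 genes of the core Notch pathway were examined in 12 libraries of messenger RNA from K562-derived cells. The 10 genes were taken by symbol from a table of 19447 gene symbols, and DLK1 itself was selected on its measured levels in these libraries. Its levels are therefore a description with no test, and the other 9 genes (DLK2, JAG1, JAG2, NOTCH1, NOTCH2, NOTCH3, RBPJ, HES1 and HEY1) were chosen by their place in the pathway with earlier results of these data known.

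K562 is an established human chronic myeloid leukemia line that carries the BCR-ABL fusion, and every group was made of K562 or cells derived from it. K562/IM is 1 line derived from K562 by raising imatinib (IM) step by step, and it was maintained in 5 µM imatinib. The study compared untreated K562, K562 given 6 µM of the plant alkaloid lycorine (K562+L), K562/IM, and K562/IM given 6 µM lycorine (K562/IM+L), with 3 libraries in each of the 4 groups. Whether imatinib was in the medium when RNA was taken, and how long lycorine was present, are not given in the sources used here. Nothing says that the 3 libraries of a group came from separate cultures, so that the p-values measure the spread between these libraries, which may be technical. The sample titles name the K562/IM+L libraries G2, while the study's drawings name that group G6, so that the identity of these libraries is in doubt. They are named the K562/IM+L-labelled (or labelled) libraries below, and every direction drawn from them rests on that label.

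Notch receptors are single-pass membrane proteins that are cut when a ligand on a neighbouring cell pulls on them. The freed intracellular part enters the nucleus, binds the DNA-binding protein RBPJ together with Mastermind coactivators, and switches on targets such as the HES and HEY families of repressors. DLK1 resembles the Delta ligands in its epidermal growth factor-like repeats but lacks the domain by which canonical ligands engage the receptor, and it is known as a paternally expressed imprinted gene, as an inhibitor of fat cell formation and as a protein of immature blood and liver cells. In blood, Notch signaling is best known for its role in T cell fate and in the emergence of stem cells.

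RBPJ is known to bind the letters TGGGAA, and the promoters of HES1, the member with these letters closest together, and of HEYL, another target, are shown as 2 examples of windows that hold them 2 times. The targets HES5 and HEY2 and 1 of the 5 windows of RBPJ also held them 2 times. The sequences are RefSeq's on GRCh38.p14 and run 5′ to 3′ on the strand of the gene over the 250 bases before the start, with TGGGAA, on either strand, in capitals. HEYL is no member of the 10 and was added after its values were seen. The HES1 window is chr3:194135898-194136147 on the plus strand, and the HEYL window is chr1:39639644-39639893 on the minus strand.
HES1: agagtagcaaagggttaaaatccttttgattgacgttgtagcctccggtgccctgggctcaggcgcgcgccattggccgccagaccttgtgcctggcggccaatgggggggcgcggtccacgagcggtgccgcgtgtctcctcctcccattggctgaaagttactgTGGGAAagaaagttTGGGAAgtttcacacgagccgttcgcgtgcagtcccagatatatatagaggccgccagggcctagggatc
HEYL: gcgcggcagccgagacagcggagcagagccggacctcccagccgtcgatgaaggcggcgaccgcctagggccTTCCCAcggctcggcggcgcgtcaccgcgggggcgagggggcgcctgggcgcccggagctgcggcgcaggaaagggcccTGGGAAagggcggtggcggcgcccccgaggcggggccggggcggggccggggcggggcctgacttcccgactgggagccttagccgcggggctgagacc
The letters lay 84 and 70 bases before the HES1 start, both on the strand of the gene, and 178 bases (opposite strand, read as TTCCCA) and 99 bases (strand of the gene) before the HEYL start. Of 35116 promoter windows of 300 bases, 24% held TGGGAA at least once and 3.8% at least 2 times. Promoter windows were found for 8 of the 10 members, not for DLK1 and HEY1. The letters were not found in the windows of DLK2, JAG1, JAG2, NOTCH1, NOTCH2 and NOTCH3. These matches are a description of letters, not of binding.

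Total counts ran from 75093844 to 107344598 per library. Normalised levels are given as CPM, the usual count rate relative to library size, after edgeR's TMM scaling over the 12 libraries, and levels of different genes are compared only as CPM per kilobase of transcript. The 12 markers of K562 cells had a mean of at least 1 CPM in every group. BCR and ABL1 were among them, but their counts do not show the fusion. The 12 summed to 6686 to 8993 CPM in K562, 4737 to 5342 in K562+L, 3223 to 3449 in K562/IM and 33158 to 46373 in the K562/IM+L-labelled libraries. By the test used below, 7 of 12 were lower and 1 higher in K562/IM than in K562. In the labelled libraries 11 of 12 were higher and 0 lower than in K562/IM. The summed level of 10 erythroid maturation markers was 2250 to 2611 CPM in K562, 1819 to 2005 in K562+L, 1008 to 1069 in K562/IM and 11534 to 15777 in the K562/IM+L-labelled libraries, where 10 of 10 were higher than in K562/IM by the test used below. Of 10 megakaryocyte markers, summed at 289 to 427, 221 to 336, 256 to 261 and 678 to 1047 CPM in the same order, PPBP was at 0 in every group, and of 6 tested 3 were higher and 1 lower in K562/IM than in K562. The sum hides opposite changes, since ITGA2B and ITGB3 were higher in K562/IM than in K562 (log2 fold changes 5.27 and 4.70) and GP1BB was lower (-2.71). Between the labelled group and K562/IM, ITGA2B (-3.34) and ITGB3 (-1.51) were lower and GP1BB (3.93) was higher. MS4A1, a B cell marker, was also at 0 in every group. The 14 lymphoid and monocyte markers summed to 112 to 118, 109 to 128, 187 to 195 and 77.1 to 81.7 CPM, with 5 of the 7 tested higher in K562/IM than in K562 and 4 of 7 lower in the labelled group than in K562/IM. The 12 stromal and epithelial markers summed to 658 to 858, 777 to 909, 696 to 732 and 477 to 602 CPM, with 6 of the 9 tested higher in K562/IM than in K562 and 1, EPCAM, lower by 2.77-fold. In the labelled group 7 of 10 were lower than in K562/IM and 1, EPCAM, was higher. The stromal and epithelial sum is mostly KRT8, KRT18 and EPCAM and hides the changes of the other markers. COL1A2 had means of 0.0164 CPM in K562, 0 in K562+L, 17.1 in K562/IM and 0.0294 in the labelled group. COL1A1 and PECAM1 were higher in K562/IM than in K562 by 8.81-fold and 12.2-fold. Over all genes tested, 30.1% were called higher and 27.1% lower in K562/IM than in K562. For the labelled group against K562/IM these shares were 33.2% and 33.6%. In bulk RNA, fewer cells of a type and less RNA per cell cannot be told apart. The part of these cell state markers in the results on Notch genes was not tested.

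DLK1 (chromosome 14, 100725705 to 100738224, plus strand, GENCODE 29 on GRCh38) was the member with the highest level per kilobase in every group. It measured 468, 589 and 616 CPM in the 3 K562 libraries, 136, 135 and 119 CPM in K562+L, 1236, 1232 and 1151 CPM in K562/IM, and 1177, 1287 and 1008 CPM in the K562/IM+L-labelled libraries. The 3 K562+L libraries all lay below the 3 K562 libraries, and all 6 libraries labelled as K562/IM with or without lycorine lay above them. K562/IM and the K562/IM+L-labelled libraries overlapped on this scale.

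The log2 fold change of DLK1 was -2.10 (SE 0.122) in K562+L against K562, a level lower by 4.30-fold. In K562/IM against K562 it was 1.11 (SE 0.107), or 2.16-fold higher. Between the K562/IM+L-labelled libraries and K562/IM it was -0.04 (SE 0.0939), and the difference between the 2 lycorine effects as labelled was 2.04 (SE 0.161). DLK1 was thus lower under lycorine in K562 and about level in the labelled comparison of K562/IM, values that chose the gene and that carry no test. As a share of all counts DLK1 took 0.0460% to 0.0576% in K562, 0.0115% to 0.0133% in K562+L, 0.126% to 0.136% in K562/IM and 0.103% to 0.122% in the labelled group. On this scale, without TMM, the labelled group lay below K562/IM without overlap, whereas in TMM-scaled CPM the 2 groups overlapped. Among 19291 genes with a transcript length, its level per kilobase ranked between 579 and 705 in the K562 libraries, between 2784 and 3150 in K562+L, between 139 and 156 in K562/IM and between 205 and 221 in the K562/IM+L-labelled libraries.

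**Figure D1:**
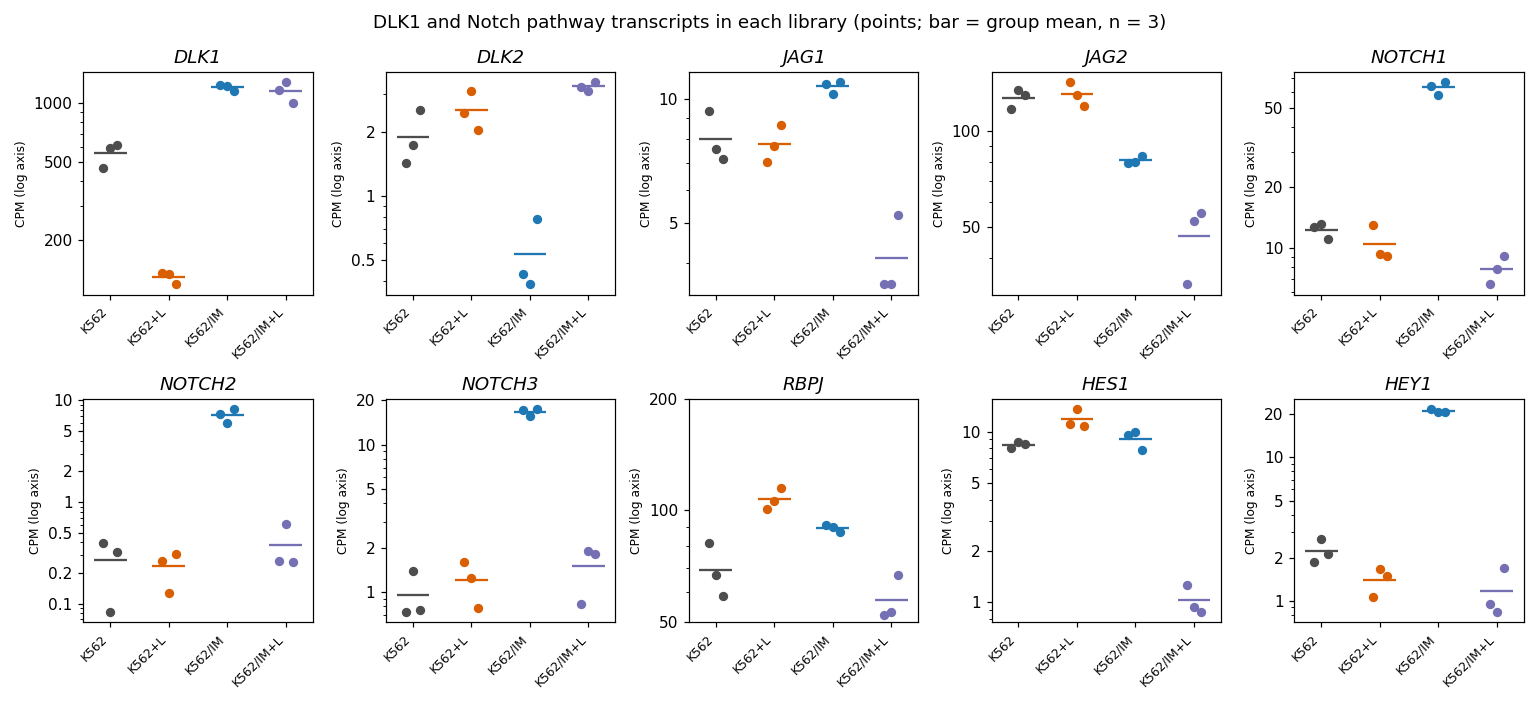
Level of each of the 10 genes in each library, in CPM on a log axis that differs between panels, with points for the 3 libraries of a group and a bar for their mean; K562/IM+L stands for the libraries labelled so. NOTCH1, NOTCH2, NOTCH3 and HEY1 are high in the 3 K562/IM libraries alone, whereas DLK1 is high in both groups labelled K562/IM and lowest in K562+L, at 119 to 136 CPM.

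DLK2, the paralog of DLK1 and likewise a ligand-like protein without the receptor-engaging domain, was expressed at a much lower level. Its mean level per kilobase was 0.926 ± 0.274 CPM per kb (SD, n = 3) in K562, against 118 ± 16.7 for DLK1. Its libraries gave 1.42, 1.73 and 2.51 CPM in K562, 2.44, 3.09 and 2.04 in K562+L, 0.431, 0.385 and 0.782 in K562/IM, and 3.23, 3.11 and 3.41 in the K562/IM+L-labelled libraries. DLK2 was thus lowest in K562/IM and highest in the K562/IM+L-labelled libraries, the 2 groups between which DLK1 overlapped. In K562/IM against K562 its log2 fold change was -1.81 (SE 0.366, adjusted p = 0.00379, edgeR quasi-likelihood test). In the K562/IM+L-labelled libraries against K562/IM it was 2.62 (SE 0.306, adjusted p = 2.0e-04). The K562 and K562+L libraries overlapped (log2 fold change 0.42, SE 0.267, adjusted p = 0.250). Against K562 the labelled libraries were higher by 0.76 (SE 0.243, adjusted p = 0.0316), a call that was lost in 5 of 6 fits with 1 library removed, with adjusted p from 0.0699 to 0.0980, when K562 replicate 1 or 2 or any of the 3 labelled libraries was left out.

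JAG1 and JAG2 encode the Jagged ligands, which carry the receptor-engaging domain. JAG2, with a mean of 21.9 ± 1.52 CPM per kb in K562, stood above JAG1, at 1.35 ± 0.196. The JAG2 libraries gave 118, 135 and 130 CPM in K562, 143, 130 and 120 in K562+L, 79.7, 80.4 and 83.6 in K562/IM, and 33.1, 52.2 and 55.6 in the K562/IM+L-labelled libraries. JAG2 therefore overlapped between K562 and K562+L, and was lower in K562/IM and lower still in the labelled libraries, without overlap. The log2 fold change was -0.65 in K562/IM against K562 (SE 0.0762, adjusted p = 2.6e-04) and -0.77 in the labelled libraries against K562/IM (SE 0.182, adjusted p = 0.00702). Against K562 the labelled libraries were at -1.47 (SE 0.191, adjusted p = 6.0e-04).

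JAG1 libraries gave 9.34, 7.58 and 7.14 CPM in K562, 7.03, 7.68 and 8.64 in K562+L, 10.9, 10.3 and 11 in K562/IM, and 3.55, 3.56 and 5.23 in the K562/IM+L-labelled libraries. K562/IM was highest and the labelled libraries lowest, neither overlapping any other group. The labelled libraries were below K562/IM with a log2 fold change of -1.36 (SE 0.179, adjusted p = 3.8e-04) and below K562 with -0.99 (SE 0.202, adjusted p = 0.00497). The smaller difference of K562/IM from K562, 0.42 (SE 0.126, adjusted p = 0.0226), was lost without K562 replicate 2 or without any 1 of the 3 K562/IM libraries, with adjusted p from 0.0501 to 0.0777. The 2 Jagged ligands thus differed from K562 in opposite directions in K562/IM, and both were below K562 in the labelled libraries.

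The 3 receptors that were measured as members shared a pattern, high in K562/IM and low in each other group. NOTCH1 (chromosome 9, 136494433 to 136545786, minus strand), the receptor best known for activating mutations in T cell leukemia, gave 12.7, 13.1 and 11 CPM in K562, 13.0, 9.26 and 9.11 in K562+L, 64.1, 58.1 and 67.1 in K562/IM, and 6.55, 7.84 and 9.11 in the K562/IM+L-labelled libraries. The 3 K562/IM libraries lay far above all others, and the labelled libraries lay below K562. NOTCH1 was 5.14-fold higher in K562/IM than in K562 (log2 fold change 2.36, SE 0.101, adjusted p = 2.2e-06). It was 7.91-fold lower in the labelled group than in K562/IM (log2 fold change -2.98, SE 0.139, adjusted p = 2.4e-06). Relative to K562 the labelled libraries were at -0.67 (SE 0.152, adjusted p = 0.00772), and K562+L, at -0.23 (SE 0.160, adjusted p = 0.283), overlapped K562.

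NOTCH3 gave 0.736, 1.38 and 0.759 CPM in K562, 1.59, 1.25 and 0.785 in K562+L, 17.1, 15.6 and 17.4 in K562/IM, and 0.832, 1.89 and 1.81 in the K562/IM+L-labelled libraries. The K562/IM libraries were again the high ones, and the other 3 groups overlapped each other. It was higher in K562/IM than in K562 by 17.3-fold (log2 fold change 4.11, SE 0.248, adjusted p = 9.9e-06). In the labelled libraries against K562/IM the log2 fold change was -3.44 (SE 0.294, adjusted p = 4.2e-05). Neither K562+L (0.33, SE 0.372, adjusted p = 0.516) nor the labelled libraries (0.63, SE 0.418, adjusted p = 0.236) passed the threshold against K562.

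NOTCH2 was the scarcest member in every group but K562/IM, with 32, 7 and 25 counts in the 3 K562 libraries and 610, 577 and 879 in K562/IM. In CPM it gave 0.393, 0.0834 and 0.322 in K562, 0.265, 0.127 and 0.306 in K562+L, 7.30, 6.01 and 8.19 in K562/IM, and 0.265, 0.602 and 0.255 in the K562/IM+L-labelled libraries. Low counts in the table pile up near multiples of 4, so that 7 counts may stand for very few sequenced fragments. The log2 fold change was 4.75 (SE 0.439, adjusted p = 8.4e-05) in K562/IM against K562 and -4.26 (SE 0.351, adjusted p = 3.5e-05) in the labelled libraries against K562/IM.

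NOTCH2 shares near-identical sequence with NOTCH2NLA, NOTCH2NLB and NOTCH2NLC, and how reads were shared out between them is not described, so that its level and the size of its fold change are uncertain. The 3 copies, in the same order, were also higher in K562/IM (log2 fold changes 1.35, 1.83 and 1.71). With NOTCH2 and the 3 copies summed, an alternative chosen after the data were seen, the log2 fold change was 1.77 in K562/IM against K562 (adjusted p = 5.3e-06) and -1.98 in the labelled libraries against K562/IM (adjusted p = 3.3e-06). The direction was the same and the size smaller than for the NOTCH2 symbol alone. Against K562 the labelled libraries were at 0.46 (SE 0.685, adjusted p = 0.591) for NOTCH2 alone and at -0.26 (adjusted p = 0.138) for the sum, so that no direction is given. In K562+L the value was -0.18 (SE 0.662, adjusted p = 0.852).

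RBPJ, the nuclear partner through which all 4 receptors act, was the member after DLK1 and JAG2 in level in K562, at 11.5 ± 1.93 CPM per kb. Its libraries gave 81.6, 66.9 and 58.8 CPM in K562, 101, 106 and 115 in K562+L, 91.3, 90.2 and 87.3 in K562/IM, and 52.1, 53.3 and 66.7 in the K562/IM+L-labelled libraries. The K562+L libraries were the highest, and the labelled libraries overlapped K562. RBPJ was higher in K562+L than in K562 by 0.63 on the log2 scale (SE 0.129, adjusted p = 0.00776) and lower in the labelled group than in K562/IM, at -0.62 (SE 0.107, adjusted p = 0.00154). The value for K562/IM against K562, 0.38 (SE 0.118, adjusted p = 0.0273), was lost without K562 replicate 2 or without any 1 of the K562/IM libraries (adjusted p from 0.0633 to 0.0883). Labelled libraries against K562 gave -0.29 (SE 0.149, adjusted p = 0.135).

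HES1 and HEY1 are direct Notch targets that encode basic helix-loop-helix repressors. HES1, whose promoter is printed above (gene at chromosome 3, 194136145 to 194138732), gave 8.0, 8.67 and 8.41 CPM in K562, 11.1, 13.5 and 10.7 in K562+L, 9.56, 9.91 and 7.77 in K562/IM, and 1.27, 0.938 and 0.883 in the K562/IM+L-labelled libraries. HES1 did not share the high K562/IM levels of the receptors, since K562 and K562/IM overlapped (log2 fold change 0.12, SE 0.124, adjusted p = 0.442). The labelled libraries stood far below every other group, at a log2 fold change of -3.11 (SE 0.195, adjusted p = 9.6e-06) against K562/IM and -3.04 (SE 0.193, adjusted p = 2.7e-05) against K562. In K562+L the level was 1.40-fold that of K562 (log2 fold change 0.49, SE 0.125, adjusted p = 0.0183). That call was lost without K562 replicate 2 or without K562+L replicate 2, with adjusted p from 0.0538 to 0.0583.

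HEY1, in contrast, followed the receptors. It gave 1.87, 2.71 and 2.13 CPM in K562, 1.06, 1.67 and 1.48 in K562+L, 21.7, 20.6 and 20.8 in K562/IM, and 0.945, 0.840 and 1.70 in the K562/IM+L-labelled libraries. The K562/IM libraries were the high ones, with a log2 fold change of 3.23 against K562 (SE 0.150, adjusted p = 3.1e-06), or 9.40-fold. The labelled libraries were 17.6-fold lower than K562/IM (log2 fold change -4.14, SE 0.269, adjusted p = 1.1e-05). The 3 K562+L libraries lay below the 3 K562 libraries, at -0.67 (SE 0.250, adjusted p = 0.0681), which did not pass the threshold. With DESeq2 in place of edgeR that adjusted p was 0.0447, and without K562 replicate 1 it was 0.0440. Against K562 the labelled libraries were at -0.96 (SE 0.325, adjusted p = 0.0383), a call lost without K562 replicate 2 or 3 or labelled replicate 1 or 2 (adjusted p from 0.0740 to 0.122).

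**Figure D2:**
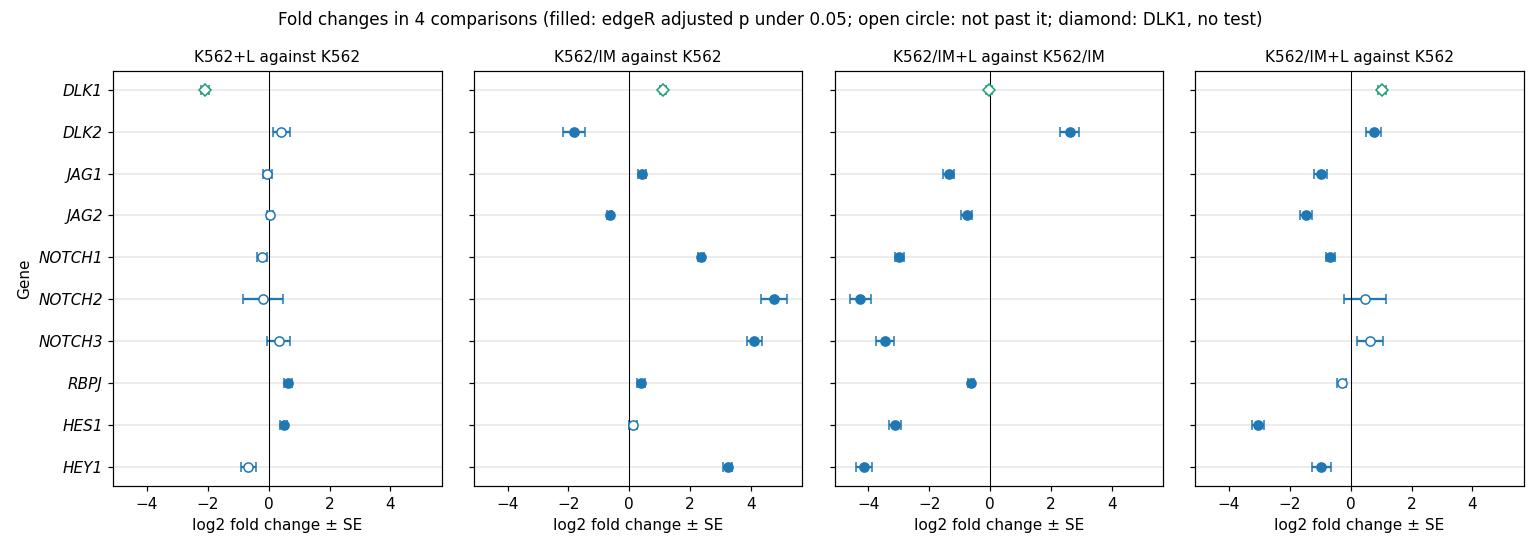
Log2 fold change with its standard error (bars) for the 10 genes in 4 comparisons of 3 against 3 libraries, where filled circles passed an adjusted p of 0.05, open circles did not, and DLK1 (diamonds) has no test. The receptors and HEY1 lie to the right in K562/IM against K562 (NOTCH1 at 2.36, HEY1 at 3.23) and to the left in the K562/IM+L-labelled libraries against K562/IM (NOTCH1 at -2.98, HEY1 at -4.14).

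Counted over the 9 genes other than DLK1, with a call at an adjusted p under 0.05, 2 were higher and 0 lower in K562+L than in K562 (0 over 2-fold). All 9, like DLK1, had passed the filter on low counts in each fit. Of all 12927 genes tested there, 18.2% were called higher and 19.0% lower, and 6.39% were called with a change over 2-fold, so that the count for the 9 genes was near the background.

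In K562/IM against K562, 6 of the 9 were higher and 2 lower, with 4 and 1 of these over 2-fold. Over all 13406 genes tested 30.1% were higher, 27.1% were lower and 19.1% were called over 2-fold. The members higher by over 2-fold were the 3 receptors and HEY1, and DLK2 was the one lower by over 2-fold.

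In the K562/IM+L-labelled libraries against K562/IM, 8 of the 9 were lower and 1, DLK2, was higher, with 6 and 1 of these over 2-fold. Of all 13727 genes tested 33.2% were higher, 33.6% lower and 28.5% called over 2-fold. Against K562 the labelled libraries were lower in 5 of the 9 and higher in 1, with 2 lower over 2-fold (JAG2 and HES1) and 0 higher. The shares over 13307 genes were 28.2% higher, 27.8% lower and 23.8% over 2-fold. The comparisons share libraries, K562 in 3 of them and K562/IM in 2, so that their values are set side by side only. Since the label is in doubt, an effect of lycorine in K562/IM and a difference in what the cells were cannot be told apart there.

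The difference between the lycorine effect in K562/IM, as labelled, and that in K562 was tested as an interaction over the 12 libraries. Of the 9 genes 8 had a lower effect in K562/IM as labelled and 1, DLK2, a higher one, whereas 29.9% of the 13995 genes tested were called higher and 31.7% lower. The difference was -3.63 for HES1 (SE 0.229, adjusted p = 1.4e-07) and -2.78 for NOTCH1 (SE 0.219, adjusted p = 8.0e-07). HES1 thus had opposite signs in the 2 comparisons, higher in K562+L and lower in the labelled libraries, as did RBPJ, with a difference of -1.28 (SE 0.173, adjusted p = 6.0e-05). For HES1 the call in K562+L was lost without K562 replicate 2 or K562+L replicate 2 (edgeR adjusted p from 0.0538 to 0.0583). It was also lost with a block for the replicate number (adjusted p = 0.0501).

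Beyond the 10 genes, 73 genes of the pathway were listed in 7 groups by role, and 62 or 63 passed the filter on low counts. In K562+L against K562, 17 of 62 were higher, 14 lower and 31 without a call, with a median log2 fold change of 0.03 (median over all genes tested -0.00). In K562/IM against K562, 27 were higher and 12 lower, with a median of 0.26 (all genes 0.04). In the K562/IM+L-labelled libraries against K562/IM, 16 were higher and 31 lower, with a median of -0.27 (all genes -0.01). Against K562, the labelled libraries had 11 of 63 higher and 23 lower, with a median of -0.12 (all genes 0.02). The shares called in each direction over all genes are those given for the members above.

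Among the other ligands, only DLL3, DLL4 and EGFL7 of 8 were tested, because DLL1, DNER, MFAP2, MFAP5 and CNTN1 were at or near 0, with no library above 0.101 CPM. EGFL7, a secreted protein of blood vessels that is described as a Notch antagonist, had a mean of 185 ± 34.7 CPM (SD, n = 3) in K562, 53.4 ± 6.56 in K562+L, 47.8 ± 1.60 in K562/IM and 78.8 ± 17.3 in the K562/IM+L-labelled libraries. It was lower than in K562 in each of the other 3 groups, with log2 fold changes of -1.79, -1.95 and -1.25 (adjusted p = 2.9e-04, 2.0e-05 and 0.00183).

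DLL4, a Delta ligand known from vessel sprouting, was also lower than K562 in K562+L (-0.89, adjusted p = 0.0260) and in K562/IM (-1.49, adjusted p = 0.00248), and it was higher in the labelled group than in K562/IM (1.93, adjusted p = 4.6e-04). DLL3, a divergent Delta protein held mostly inside the cell, was lower in the labelled group than in K562/IM (-0.99, adjusted p = 0.00550) and than in K562 (-1.46, adjusted p = 0.00501). NOTCH4, the fourth receptor, had no call in any comparison, and its mean was at most 0.758 CPM in any group.

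The other Notch targets were mostly lower in the labelled group. In the K562/IM+L-labelled libraries against K562/IM, 11 of 14 tested were lower and 1 higher (33.6% and 33.2% of all genes). Against K562, 10 were lower and 2 higher (27.8% and 28.2% of all genes). In K562/IM against K562, 7 were higher and 2 lower (30.1% and 27.1% of all genes). In K562+L against K562, 2 were higher and 7 lower (18.2% and 19.0% of all genes). CCND1, which encodes cyclin D1 of the G1 phase, had means of 20.4 ± 1.88 CPM in K562, 4.26 ± 0.362 in K562+L, 62.5 ± 2.38 in K562/IM and 2.19 ± 0.263 in the labelled libraries. It was lower in K562+L than in K562 (-2.26, SE 0.123, adjusted p = 4.8e-05), higher in K562/IM (1.61, SE 0.0911, adjusted p = 7.3e-06), and lower in the labelled group than in K562/IM by a fold of 28.2 (-4.82, SE 0.110, adjusted p = 1.8e-07). Many of these targets answer to other pathways too.

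CDKN1A, which encodes the cell cycle inhibitor p21 and is best known as a p53 target, had means of 12.2 ± 1.01 CPM in K562, 56.2 ± 1.79 in K562/IM and 7.14 ± 1.21 in the labelled libraries. Its log2 fold change was 2.20 in K562/IM against K562 (SE 0.0886, adjusted p = 1.7e-06) and -2.96 in the labelled libraries against K562/IM (SE 0.126, adjusted p = 1.6e-06). HES2, a relative of HES1, was the only gene listed as another target that was called higher there. It had 0.161 ± 0.0380 CPM in K562/IM and 5.73 ± 0.689 in the labelled libraries (log2 fold change 5.15, SE 0.242, adjusted p = 2.5e-06). HES1 and HES2 thus lay at opposite ends in the labelled libraries. HEYL, whose promoter is printed above, had means of 1.84 ± 0.531 CPM in K562, 2.38 ± 0.301 in K562+L, 8.33 ± 0.617 in K562/IM and 5.74 ± 0.505 in the labelled libraries. Its log2 fold change was 2.17 in K562/IM against K562 (adjusted p = 1.4e-04). Other genes listed as targets differed in that comparison, and whether Notch controls them in these cells was not tested. NRARP was higher by 0.38 (adjusted p = 0.0110), whereas HES6 (-1.03, adjusted p = 6.4e-04) and HES2 (-1.20, adjusted p = 0.0463) were lower. HES4 (-0.38), HES7 (0.02) and HEY2 (0.84) had no call.

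In the lists for the handling of receptors and ligands, FURIN, the protease that makes the first cut in the receptor, was at 139 ± 3.29 CPM in K562, 182 ± 3.13 in K562/IM and 427 ± 11.8 in the labelled libraries. It was higher in the labelled group than in K562/IM by 1.26 on the log2 scale (SE 0.0616, adjusted p = 3.0e-06) and than in K562 by 1.60 (SE 0.0770, adjusted p = 1.0e-05). DTX3L, a ubiquitin ligase of the Deltex family, was higher in K562+L than in K562 by 1.21 (SE 0.118, adjusted p = 4.6e-04). Of the 9 genes of receptor cleavage, 5 were higher and 1 lower in K562/IM than in K562, and 3 were higher and 4 lower in the labelled group than in K562/IM. Of 18 genes of the nuclear complex and its corepressors, 8 were higher and 2 lower in K562+L, 8 higher and 4 lower in K562/IM, both against K562, and 5 higher and 9 lower in the labelled libraries against K562/IM. Over all genes, the shares called higher and lower in these 3 comparisons were 18.2% and 19.0%, 30.1% and 27.1%, and 33.2% and 33.6%.

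**Figure D3:**
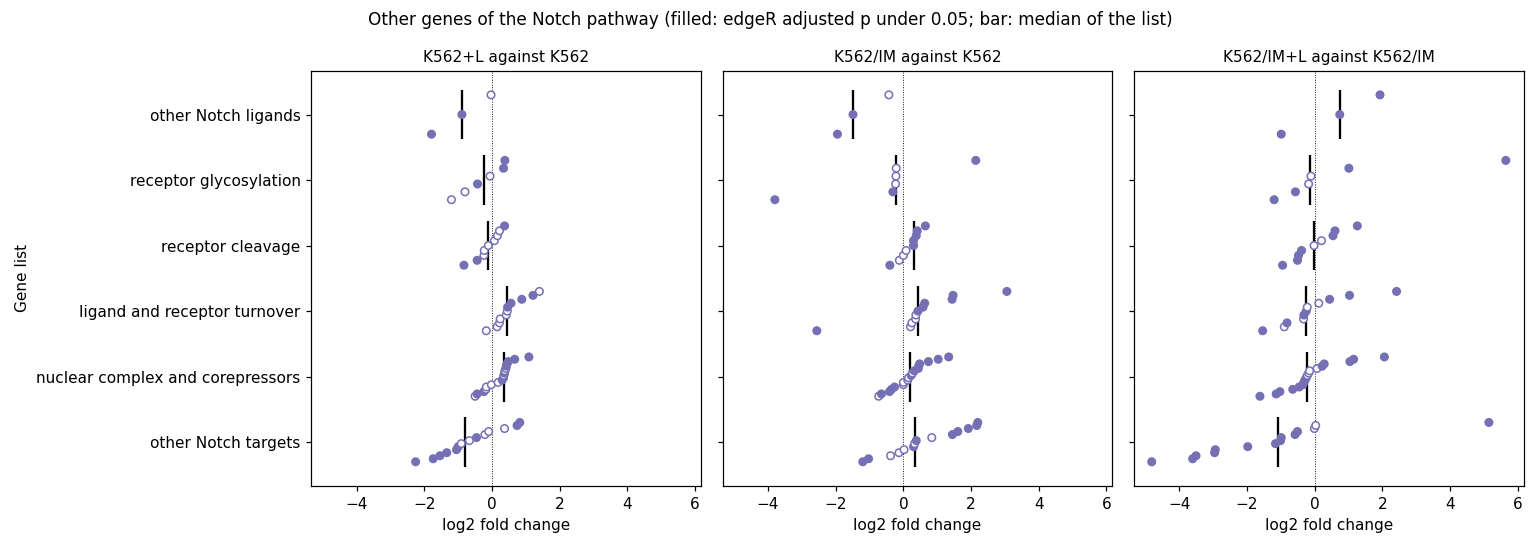
Log2 fold changes of the tested genes of 6 lists of other Notch pathway genes in 3 comparisons, 1 point a gene (filled where the adjusted p was under 0.05, edgeR), with a black bar at the median of each list. Points of the other Notch targets lie mostly left of 0 in the K562/IM+L-labelled libraries against K562/IM. Within that list HES2 alone lies far to the right, at 5.15.

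DLK1 lies in the imprinted cluster of 14q32, and 11 of 16 listed symbols of its neighbourhood were in the table, of which 8 were tested. The list held WARS1 under its older name WARS as well, and MEG3, MEG8, MEG9 and DIO3OS were not in the table. The tested neighbours start at -754 to -138 kb and at 1036 kb from the start of DLK1, so that their values do not describe the genes closest to it. RTL1, SLC25A47 and DIO3 were at or near 0, with no library above 0.147 CPM, and the nearest tested neighbour was BEGAIN, whose start lies 138 kb before that of DLK1 (position -138 kb). BEGAIN had means of 2.66 ± 0.372 CPM in K562, 1.19 ± 0.404 in K562+L, 6.31 ± 0.656 in K562/IM and 1.49 ± 0.214 in the labelled libraries. Like DLK1 it was low in K562+L (-1.17, adjusted p = 0.0151) and high in K562/IM (1.24, adjusted p = 4.7e-04), but unlike DLK1 it was low in the labelled libraries against K562/IM (-2.06, adjusted p = 3.6e-05).

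Of the 8 tested neighbours, 6 were lower and 0 higher in K562+L than in K562, against the background of 19.0% lower. SLC25A29, a mitochondrial carrier of basic amino acids, was lower by a fold of 3.71 (-1.89, SE 0.120, adjusted p = 8.2e-05). DEGS2, a sphingolipid desaturase and hydroxylase, was at -1.82 (SE 0.256, adjusted p = 0.00189), WARS1, the tryptophanyl-tRNA synthetase, at -1.0 (SE 0.0725, adjusted p = 1.5e-04), EVL at -0.80 (adjusted p = 0.00110) and PPP2R5C at -0.37 (adjusted p = 0.0141). WDR25 (-0.30, adjusted p = 0.149) and YY1 (0.11, adjusted p = 0.384), a zinc finger factor, had no call.

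The neighbours did not move as one in the other comparisons. In K562/IM against K562, 2 were higher (BEGAIN and DEGS2) and 3 lower, and in the labelled libraries against K562/IM 2 were higher and 3 lower. Over all genes, the shares higher and lower were 30.1% and 27.1%, and 33.2% and 33.6%. DEGS2 was higher in K562/IM than in K562 by 2.05 (SE 0.124, adjusted p = 1.0e-05) and higher again in the labelled libraries, by 1.76 over K562/IM (adjusted p = 7.9e-06) and by 3.76 over K562 (SE 0.137, adjusted p = 7.9e-06). WARS1 was lower than K562 in both, at -0.96 in K562/IM (adjusted p = 2.1e-05) and -1.62 in the labelled libraries (SE 0.0817, adjusted p = 1.2e-05), and was at -0.61 between the labelled libraries and K562/IM (adjusted p = 1.2e-04). SLC25A29 was lower than K562 by similar amounts in K562/IM (-0.88) and in the labelled libraries (-0.96), adjusted p = 2.2e-04 and 2.6e-04. WDR25 was at -0.87 in K562/IM against K562 (adjusted p = 6.4e-04) and at 1.16 in the labelled libraries against K562/IM (adjusted p = 8.9e-05). YY1 was at -0.50 in the labelled libraries against K562/IM (adjusted p = 5.4e-04).

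**Figure D4:**
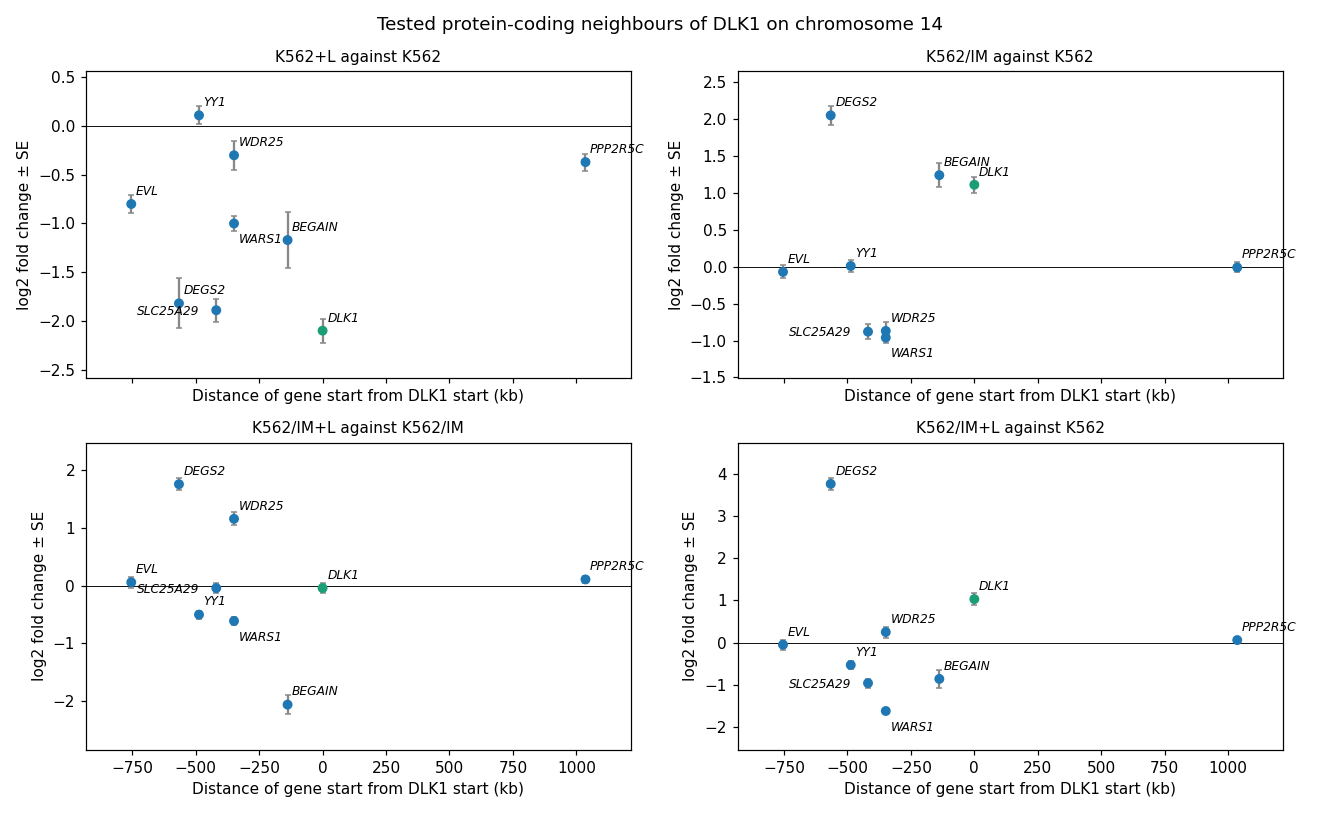
Log2 fold change with its standard error (bars) of DLK1 (green) and its 8 tested neighbours (blue) against the distance of each gene's start from that of DLK1 in kilobases, in 4 comparisons with different vertical scales. In K562+L against K562 all but YY1 lie below 0, while in the other panels neighbours lie on both sides, DEGS2 reaching 3.76.

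The genes most like DLK1 were sought by Pearson correlation of log2(CPM + 1) over the 12 libraries among 11665 genes with a mean of at least 1 CPM. The libraries share 4 groups, so that the coefficient mostly follows the group means and carries no p. The 5 highest were RGL2 (0.992), which encodes a Ral guanine nucleotide exchange factor, MKNK2 (0.989), a kinase of the translation factor eIF4E, GIPR (0.988), the receptor of an incretin hormone, SPAG4 (0.986) and S100A6 (0.984), a calcium-binding protein. By Spearman's rho their values were 0.881, 0.895, 0.874, 0.979 and 0.944. By that measure 0 of the 5 were among the top 5 and 2 among the top 50, so that which genes are named depends on the measure.

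RGL2 averaged 48.0 ± 2.93 CPM in K562, 24.2 ± 1.76 in K562+L, 75.4 ± 2.31 in K562/IM and 80.6 ± 4.07 in the K562/IM+L-labelled libraries. GIPR averaged 28.5 ± 0.505, 11.2 ± 0.769, 45.5 ± 1.90 and 37.8 ± 2.53 CPM in the same order. Both were picked for their likeness to DLK1 and had its order, with K562+L lowest, K562 next and both groups labelled K562/IM high. No other member was near DLK1 by this measure, with Pearson's r between 0.518 for NOTCH2 and -0.693 for JAG2.

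**Figure D5:**
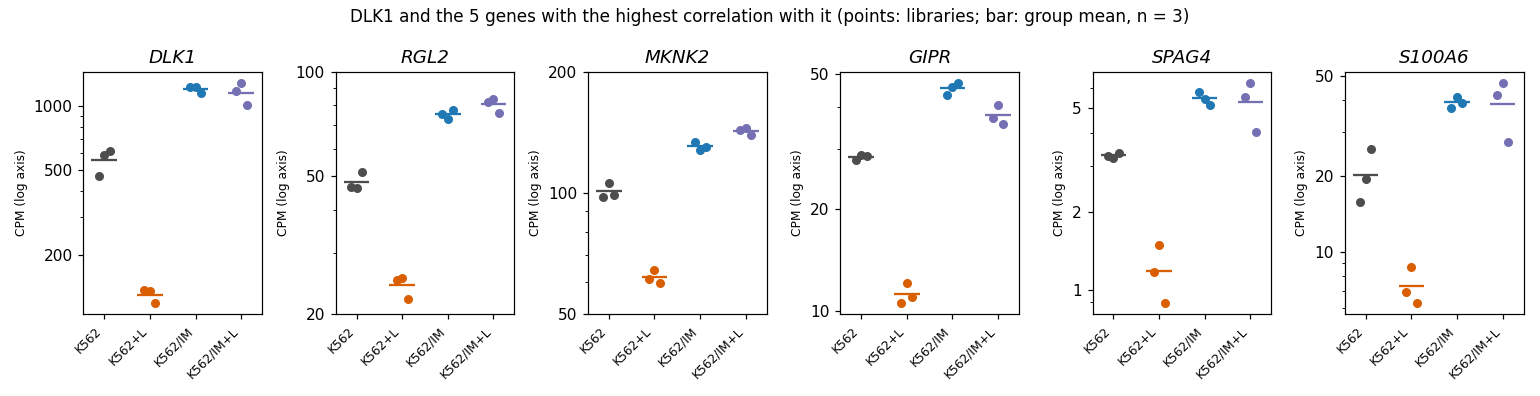
Level of DLK1 and of the 5 genes with the highest Pearson correlation with it, in CPM on a log axis, with points for the 3 libraries of a group and a bar for the mean. In each panel the K562+L libraries are lowest (RGL2 at a mean of 24.2 CPM) and both groups labelled K562/IM lie above the K562 libraries (75.4 and 80.6 CPM).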

How the data were processed

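Messenger RNA was enriched by poly(A), and the submitters' processing notes name FastQC, STAR, StringTie and DESeq2, without versions or roles, and the build hg38. The counting tool's settings are not given in the sources used here. The authors deposited whole-number estimated counts per gene symbol, not normalized. Of 23289 values from 1 to 25, 67.9% were divisible by 4 or exceeded such a number by 1, where 52.0% of the whole numbers do, so that a fragment may be worth about 4 counts and counting noise larger than the totals imply.

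Pairs of groups (6 libraries) were filtered with filterByExpr (minimum count 10), scaled by TMM and fitted with edgeR 4.0.16 (quasi-likelihood test, limma 3.58.1, R 4.3.3), with Benjamini-Hochberg adjustment over all genes tested. Genes with an adjusted p under 0.05 were called, and over 2-fold also needed an absolute log2 fold change over 1. The interaction used 12 libraries. Each SE is the absolute log2 fold change divided by the square root of the quasi-likelihood F statistic. For DLK1 it is given for scale only and not as a test. CPM used TMM over 12 libraries and lengths of GENCODE 29, matched for 19291 of 19447 symbols. Steps were tested on simulated data. The members and lists were chosen with earlier results of these data known. Named beyond the members were, in each comparison, up to 4 pathway or neighbour genes with the smallest p among those called over 2-fold, the 14q32 neighbours, the other ligands and the 5 genes most like DLK1. HEYL, HEY2, HES4, HES6, HES7, NRARP, NOTCH4, the NOTCH2 copies and the cell type markers given singly were added after their values were seen. Groups followed the labels, and no batch is given there. No 2 libraries held identical values. With counts divided by 4, replicates differed by a chi-square per gene of 8.63 to 53.8, which by itself does not show whether the cultures were separate. With 3 against 3 libraries the smallest exact p is 0.1. Alternatives covered DESeq2 1.42.0, the normalization, the filter, counts divided by 4, 1 fit over all libraries, a block for the replicate number, removal of each library in turn and, after seeing the data, NOTCH2 with its copies.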

Additional observations from a re-analysis of the deposited data

Results flagged for a closer look

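The difference between the lycorine effect in K562/IM, as labelled, and that in K562 passed the interaction test for each of the 9 genes other than DLK1, against 29.9% of all genes called higher and 31.7% lower. On the log2 scale it was 2.18 for DLK2 and, in the receptors, -2.78 for NOTCH1, -4.10 for NOTCH2 and -3.79 for NOTCH3. For the ligands it was -1.34 for JAG1 and -0.83 for JAG2. It was -3.63 for HES1, -3.50 for HEY1 and -1.28 for RBPJ (adjusted p from 1.4e-07 for HES1 to 0.00601 for JAG2, edgeR). With NOTCH2 and its copies summed, an alternative chosen after seeing the data, the value for NOTCH2 was -1.81. The direction rests on the label K562/IM+L, and erythroid maturation markers, summed at 1008 to 1069 CPM in K562/IM and 11534 to 15777 in the labelled libraries, moved with it. Their part in these differences was not tested.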

How the results depend on the processing

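Each result was recomputed under the alternatives. Of the values of single genes, 381 for the other settings and 332 with 1 library left out were unchanged. For the 9 tested genes, unchanged meant the same direction and the same side of the threshold. For DLK1, which has no test, it meant the same direction and a shift within the combined spread between libraries. The rest were 3 turned signs, 1 gained call and 4 lost calls for the other settings. With 1 library left out they were 8, 1 and 19. In K562+L against K562 the fit with the replicate number as a replicate block called 3126 genes in place of 4821, and 1 of the 9 genes in place of 2, since HES1 had 0.48 with adjusted p = 0.0501. Deviations of same-numbered libraries from their group means had correlations from -0.569 to 0.141, so that the numbers were not treated as pairs. The lowest were those of replicate 3, -0.569 for the labelled libraries and K562 and -0.397 for K562+L and K562. These libraries deviated in opposite directions, and the cause was not tested. The block lost 2 more calls, DLK2 (0.80, adjusted p = 0.0565) and HEY1 (-1.01, adjusted p = 0.0713) in the labelled libraries against K562. Signs turned only for values without a call: JAG2 in K562+L (-0.01) and DLK1 in the labelled libraries against K562/IM (0.02) with upper-quartile scaling, and NOTCH2 in the labelled libraries against K562 (-0.26) with its copies summed. HEY1 in the labelled libraries against K562 was lost with upper-quartile scaling (-0.81, adjusted p = 0.0709).

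With 1 library left out, K562+L against K562 gave 2871 to 5823 called genes, 672 to 1085 over 2-fold, and 1 to 3 of the 9 genes. The called genes were 2871 without K562 replicate 2, 2971 without K562+L replicate 1 and 3058 without K562+L replicate 3, and 1 of the 9 was called without K562 replicate 2 or K562+L replicate 2. The 9 genes had 6 to 8 calls in K562/IM against K562 and 4 to 5 (6 with all libraries) in the labelled libraries against K562. They had 9 throughout in the labelled libraries against K562/IM and in the interaction. Over all genes, 6316 to 8834 were called in K562/IM against K562 and 6167 to 7441 in the labelled libraries against K562. In the labelled libraries against K562/IM 8101 to 10181 were called, and in the interaction 8043 to 8906. With all libraries 13406, 13307, 13727 and 13995 genes were tested, in that order. Values ran from -0.61 to 0.20 for NOTCH2, -0.12 to 0.07 for JAG1 and -0.03 to 0.10 for JAG2 in K562+L, from -0.12 to 0.05 for DLK1 in the labelled libraries against K562/IM, and from -0.06 to 0.86 for NOTCH2 in those against K562. NOTCH2 had no value where 10 counts were required in every library, except in the labelled libraries against K562/IM, nor with counts divided by 4 in K562+L and in the labelled libraries against K562. In those comparisons the doubt about 4 counts a fragment could not be checked for it. Low counts limit NOTCH2 most. The cause of these shifts was not tested.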
